A study of Mus musculus with 15 samples.

Results

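The genes described here are 60 nucleolar factors that process ribosomal RNA (rRNA) and assemble the ribosomal subunits, taken as a list of gene symbols that leaves out RNA polymerase I subunits and ribosomal proteins. All 60 were among the 55487 genes of the deposited gene table, and all 60 were among the 16678 genes that passed the filter on low counts. PolyA RNA was sequenced from TTF cells (TTF commonly stands for tail-tip fibroblast) of female C57BL6/CAST hybrid mice, in a study whose title names Sirtuin 7 and the dosage of the female X chromosome. The comparison used 3 libraries of wild-type cells (WT 1, 2 and 3) and 3 of cells labelled SIRT7-KO (KO 2, 9 and 22, named after the line numbers in the labels). No treatment, time or age is given for either group, the labels do not say how the gene was disrupted, and neither do they say whether wild-type replicates are separate animals. The p-values therefore speak only of how much these 6 libraries vary, and among the wild-type libraries that variation may be technical. How alike the wild-type libraries were in their allelic shares is given below. No values were used for 9 further libraries: 3 labelled SIRT7-HY, 3 of add-back knockout cells and 3 knockout replicates titled S7KO TTF. The titles of those 3 replicates have the same form as the wild-type titles (S7WT TTF). The knockout libraries compared here were matched to titles of another form. Under that match the groups come from differently named sets. If these were sequenced apart, set and genotype cannot be told apart.

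Ribosomes are built in the nucleolus, where RNA polymerase I makes a long precursor of the rRNAs. Small nucleolar RNAs (snoRNAs), each held in a protein particle (snoRNP), guide the modification of that precursor, and the small-subunit processome folds and cuts its leading part while a separate set of factors builds the large subunit. Many of these factors are shared by all dividing cells, and their genes are known to be transcribed together under growth signals, with MYC among the regulators. SIRT7 is a deacylase of the sirtuin family that is concentrated in the nucleolus and is known to associate with the RNA polymerase I machinery.

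The targeted gene did not separate the groups by its total count. The wild-type libraries held 833, 1107 and 598 Sirt7 counts and the knockout libraries 512, 694 and 787, and the groups overlapped (log2 fold change -0.31, SE 0.27, adjusted p = 0.515). Its coding transcript Sirt7-201 had 53, 58 and 159 estimated counts in the wild-type libraries and 2, 0 and 0 in the knockout libraries. A second coding transcript, Sirt7-207, had 118, 11 and 68 against 60, 129 and 0, so its groups overlapped.

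Total gene counts lay between 61065582 and 61506413 per library. Knockout libraries differed more from each other than wild-type libraries did, with a biological coefficient of variation of 0.378 against 0.135. Fibroblast markers had a summed level of 18110 to 18370 CPM (counts scaled to a total of 1000000 per library) in wild type and 28270 to 36560 CPM in knockout, a sum to which the collagens, Fn1, Vim and S100a4 gave most; 3 of 12, Col1a1, Col1a2 and Col3a1, rose, and 6 of 12 had a log2 fold change below 0. Other markers of the list, named after their values were seen, varied among the knockout libraries: Thy1 averaged 99.5 CPM in wild type and stood at 21.6, 0.195 and 71.5 CPM in KO 2, 9 and 22, and Pdgfra averaged 72.7 CPM and stood at 9.47, 11.4 and 81.3 CPM. Fap averaged 4.18 CPM in wild type against 0.59, 0.992 and 4.3 CPM, and Dcn 125.7 CPM against 194.4, 16.4 and 144.9 CPM. None of these 4 passed the test. A list of 20 proliferation genes summed to 5300 to 5367 CPM in wild type and 4320 to 5157 CPM in knockout, where 1, Tyms, fell. Of the 20, 16 had a log2 fold change below 0 (80.0%, against 48.4% of all tested genes), with a median of -0.17. KO 2 was the highest knockout line for 14 of them (70.0%, against 31.0% of all tested genes). Lists for keratinocytes, endothelial cells, leukocytes, skeletal muscle, adipocytes and Schwann cells or melanocytes each summed to at most 112.6 CPM in any library, and 37 of their 49 genes were below 1 CPM in all 6. The muscle list summed to 18.2 to 21.7 CPM in wild type and 49.4 to 112.6 CPM in knockout, and its Acta1 rose. In the Schwann cell or melanocyte list Mitf fell. It was the only 1 of the 4 tested genes of that list below 0, and their median log2 fold change was 0.53. The part of these differences in the results below was not tested, and in bulk RNA fewer cells of a type and less RNA per cell cannot be told apart.

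Of the 60 members, 12 fell in the knockout libraries, 0 rose and 48 did not pass the test. Across all tested genes 3.19% were called lower and 6.73% were called in either direction, at an adjusted p under 0.05 by edgeR's quasi-likelihood test. The 12 were Wdr46, Noc3l, Gar1, Nolc1, Gnl3, Rrp1b, Noc2l, Nol6, Wdr3, Brix1, Nop58 and Bms1, from snoRNPs, the small-subunit processome and large-subunit assembly. At an unadjusted p under 0.05, 36 members were lower and 0 higher, where 12.5% of all tested genes were lower. DESeq2 called 24 lower (7.62% of all genes it tested) and limma-voom 15 lower (3.75%), with 0 higher in each. Leaving out WT 1, 2 or 3 left 0 of the members called by edgeR, where 0.145%, 0.134% and 0.145% of all tested genes were called lower. In those fits 24 to 25 members were lower at an unadjusted p under 0.05. The share of all genes at that unadjusted threshold was not counted for them. Without the filter on low counts 4 members fell (0.675%), without KO 9 it was 9 (3.77%), without KO 22 it was 13 (6.86%), and with RLE size factors 12 (3.2%).

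The shift was broad and modest in size. The log2 fold change was below 0 for 57 of 60 members, with a median of -0.39 and a range of -0.89 to 0.15, where 48.4% of all tested genes were below 0 and their median was 0.02. Every knockout library lay below every wild-type library for 39 members, a pattern that 20.2% of tested genes showed, and above for 1, Gnl3l (15.7% of tested genes). With TMM-scaled log2 CPM in place of CPM the first count was 37 members, beside 18.2% of tested genes. The 48 members that did not pass ranged from -0.89 to 0.15. Summed over the 60 members, the wild-type libraries stood at 7181, 6866 and 6937 CPM and the knockout libraries at 6157, 5005 and 4521 CPM (library values are given throughout in the order WT 1, 2, 3 and KO 2, 9, 22). All 3 knockout libraries were below all 3 wild-type libraries in that sum, and KO 2 was nearest to wild type.

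**Figure D1:**
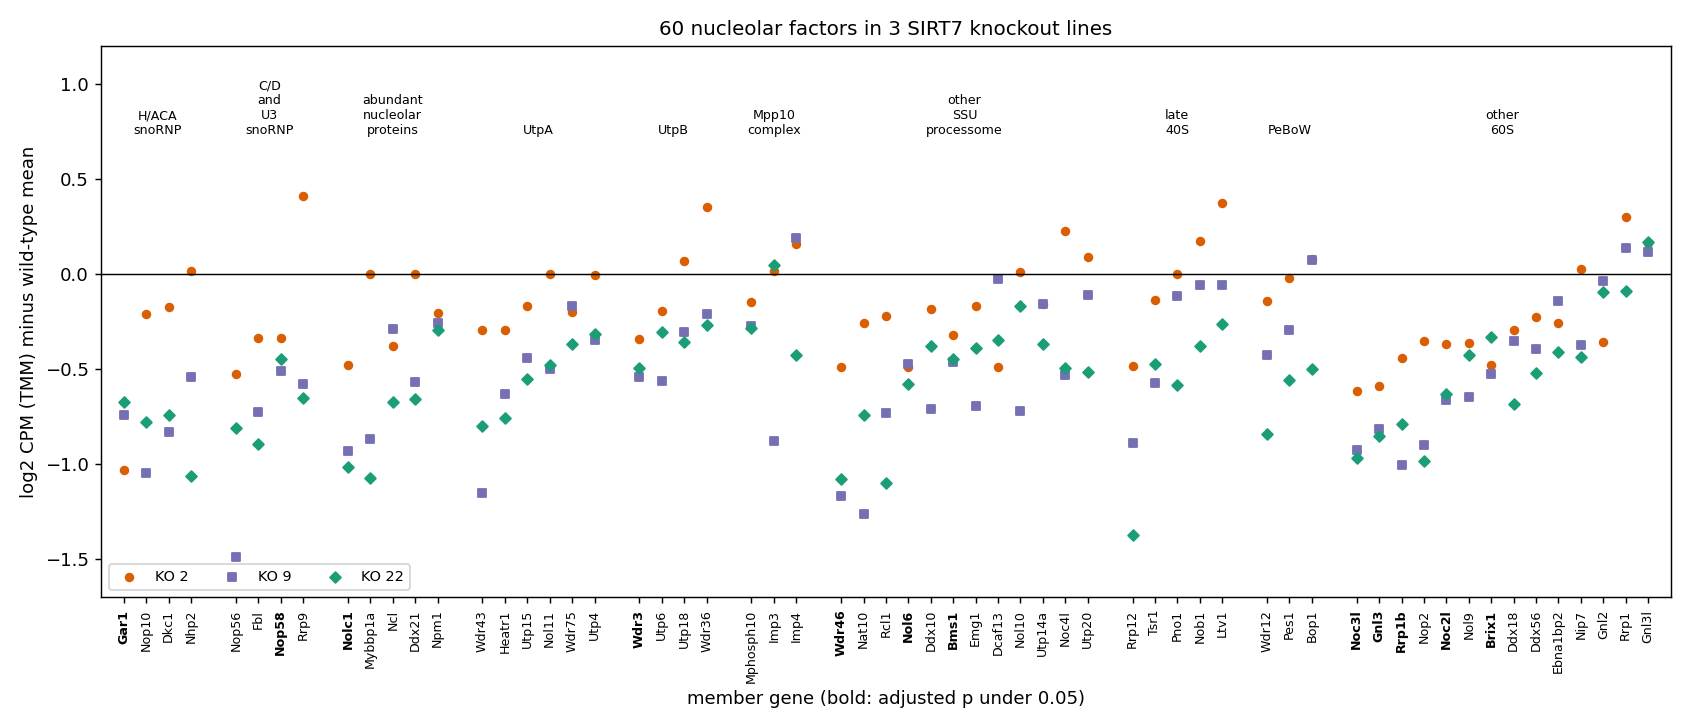
Log2 CPM after TMM scaling minus the wild-type mean (vertical axis) for each of the 60 members (horizontal axis, grouped by role), with circles for KO 2, squares for KO 9 and diamonds for KO 22; names of the 12 members past the test are bold. Most points lie below the line at 0, and KO 2 is the highest of the knockout lines for 48 of the 60 members.

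The H/ACA snoRNP proteins direct pseudouridylation of rRNA, and 1 of the 4, Gar1, fell; their median log2 fold change was -0.60. Gar1 (chr3:129824912-129831396, GRCm38, minus strand) is a core protein of the particle. It stood at 95.3, 82.2 and 88.6 CPM in wild type and at 43.1, 51.9 and 53.2 CPM in knockout. The groups did not overlap and KO 2 was the lowest library, unlike for most members (log2 fold change -0.81, SE 0.13, adjusted p = 0.0224).

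Nop10, a small structural protein of the same particle, stood at 86.2, 84.7 and 88.0 CPM in wild type and 74.1, 41.0 and 48.2 CPM in knockout. Nhp2, an RNA-binding member, stood at 102, 92.3 and 96.0 CPM against 97.1, 65.1 and 44.3 CPM. KO 9 and KO 22 were below every wild-type library for both genes, while KO 2 lay below wild type for Nop10 and within its range for Nhp2. Dkc1, the X-linked pseudouridine synthase dyskerin, stood at 79.5, 89.2 and 82.2 CPM against 73.7, 46.0 and 47.9 CPM, again without overlap and with KO 2 nearest to wild type. None of these 3 passed the test.

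Among the C/D and U3 snoRNP proteins, which guide ribose methylation and cleavage of the precursor, 1 of 4 fell and the median log2 fold change was -0.54. Nop58, a core scaffold protein, stood at 141.9, 131.8 and 150.9 CPM in wild type and 111.2, 97.4 and 99.5 CPM in knockout. The groups did not overlap (log2 fold change -0.43, SE 0.09, adjusted p = 0.0475). Its partner Nop56 had the lowest log2 fold change of all members and did not pass (-0.89, adjusted p = 0.0718), with 198, 179 and 186 CPM against 129.6, 65.3 and 102.6 CPM. The knockout values of Nop56 were widely spread, with KO 9 the lowest. Fbl, the methyltransferase fibrillarin, stood at 228.6, 202.0 and 198.3 CPM against 164.7, 123.9 and 108.0 CPM, with no overlap. Rrp9, a protein of the U3 particle, was at 63.1 CPM in KO 2, above its wild-type range of 44.3 to 52.6 CPM, and at 31.3 and 29.1 CPM in KO 9 and KO 22.

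Of the 5 abundant nucleolar proteins 1 fell, Nolc1, which carries snoRNPs. It stood at 222.0, 206.0 and 204.4 CPM in wild type and 150.1, 108.3 and 99.9 CPM in knockout. The groups were well apart (log2 fold change -0.79, SE 0.15, adjusted p = 0.0372). Nucleolin (Ncl), which binds the precursor RNA, stood at 751, 773 and 756 CPM against 582, 610 and 457 CPM. Nucleophosmin (Npm1), a histone and ribosome chaperone, stood at 586, 571 and 569 CPM against 497, 472 and 449 CPM. Both were lower in every knockout library than in any wild-type library, and neither passed the test. Ddx21, an RNA helicase, and Mybbp1a, a repressor found in nucleoli, were within or near the wild-type range in KO 2 (334.6 and 382.0 CPM) and below it in KO 9 and KO 22.

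Per exon length, Npm1 had the highest level of the members in wild type, at 576 ± 8.83 TPM (CPM corrected for gene length, mean ± SD, n = 3). Rrp1, Nhp2, Nop10 and Ncl followed at 261 ± 24.2, 225 ± 11.3, 208 ± 4.37 and 199 ± 2.86 TPM. The levels of Nhp2, Nop10 and Ncl were close beside the spread of their libraries. These lengths join all annotated exons, so a gene with many long rare exons is given too low a level.

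The small-subunit processome begins with the UtpA and UtpB complexes, which bind the leading end of the precursor. None of the 6 UtpA genes passed the test (median -0.34), although Wdr43 had a log2 fold change of -0.71. In UtpB 1 of 4 fell (median -0.27). That was Wdr3, at 59.2, 62.7 and 61.4 CPM in wild type and 47.9, 41.1 and 41.6 CPM in knockout, without overlap (log2 fold change -0.46, SE 0.09, adjusted p = 0.0395). Wdr36 of the same complex was at 139.9 CPM in KO 2, above wild type (109.0 to 110.8 CPM), and at 93.1 and 87.6 CPM in the other lines. The 3 genes of the Mpp10 complex, which joins U3 to the precursor, had a median of -0.21, and none passed.

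Of the other 12 processome genes 3 fell and the median was -0.41. Wdr46, a scaffold protein, stood at 115.4, 107.3 and 114.4 CPM in wild type and 79.6, 49.0 and 51.0 CPM in knockout (log2 fold change -0.88, SE 0.19, adjusted p = 0.0455). Nol6, a structural protein, stood at 94.9, 89.1 and 91.1 CPM against 65.0, 64.7 and 58.8 CPM (-0.51, SE 0.08, adjusted p = 0.0247). For both genes the groups were far apart, and for Nol6 the 3 knockout lines were close together. Bms1 (chr6:118383381-118419474, minus strand), a GTPase needed for processome maturation, stood at 103.3, 108.3 and 105.3 CPM against 84.1, 75.0 and 74.3 CPM, again without overlap (-0.41, SE 0.08, adjusted p = 0.0394). Nat10, which acetylates rRNA, had a log2 fold change of -0.70 and did not pass, with 35.9 CPM in KO 2 and 17.6 and 24.8 CPM in KO 9 and KO 22 against 42.1 to 45.2 CPM in wild type.

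Among late factors of the small subunit none of the 5 passed, and the median was -0.21. Rrp12, which acts in export of the subunits, had -0.88 (adjusted p = 0.0672), at 80.9, 69.0 and 73.9 CPM against 52.9, 39.5 and 27.5 CPM. Ltv1, an assembly factor released before the subunit matures, stood at 56.7, 56.6 and 55.0 CPM against 72.4, 52.9 and 44.8 CPM (log2 fold change 0.04, adjusted p = 0.901). For Ltv1, KO 2 was above every wild-type library and the other lines below.

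In large-subunit assembly, the 3 genes of the PeBoW complex (Pes1, Bop1 and Wdr12) had a median of -0.27 and none passed, while 5 of the other 14 fell with a median of -0.44. Noc3l (chr19:38788128-38819237, minus strand) and Noc2l are subunits of Noc complexes that accompany early precursors. Noc3l stood at 57.4, 58.7 and 59.1 CPM in wild type and 37.8, 30.1 and 28.7 CPM in knockout (log2 fold change -0.83, SE 0.12, adjusted p = 0.0179). Noc2l stood at 178.2, 152.1 and 169.0 CPM against 128.0, 102.9 and 102.9 CPM (-0.55, SE 0.12, adjusted p = 0.0454). Neither gene's groups overlapped, and the wild-type values of Noc3l were within 2 CPM of each other.

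Gnl3, the GTPase nucleostemin, had the smallest adjusted p of the members: 70.1, 78.4 and 76.4 CPM in wild type and 49.5, 41.7 and 39.7 CPM in knockout (log2 fold change -0.75, SE 0.11, adjusted p = 0.0175). Brix1, a factor of early large-subunit particles, stood at 101.7, 111.3 and 106.9 CPM against 76.1, 72.4 and 81.1 CPM (-0.45, SE 0.09, adjusted p = 0.0394). Rrp1b stood at 39.5, 35.7 and 37.9 CPM against 27.5, 18.4 and 20.9 CPM (-0.73, SE 0.16, adjusted p = 0.0486). No knockout library reached the lowest wild-type library for any of the 3.

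Only 3 members had a log2 fold change above 0, the paralogues Gnl3l and Rrp1 and the late factor Ltv1, and none of them passed the test. Gnl3l, an X-linked relative of Gnl3, stood at 39.5, 39.7 and 37.9 CPM in wild type and 43.5, 41.5 and 42.0 CPM in knockout (log2 fold change 0.15, adjusted p = 0.318). Rrp1, a relative of Rrp1b, stood at 361.8, 307.1 and 311.1 CPM against 399.4, 351.4 and 293.3 CPM (0.12, adjusted p = 0.607). Gnl3l was slightly higher in every knockout library, and the groups of Rrp1 overlapped. The tested genes within 5 Mb had a median log2 fold change above 0 for all 3: 0.15 around Gnl3l, 0.09 around Rrp1 and 0.20 around Ltv1. Whether the change of a gene differs from that of its relative was not tested.

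**Figure D2:**
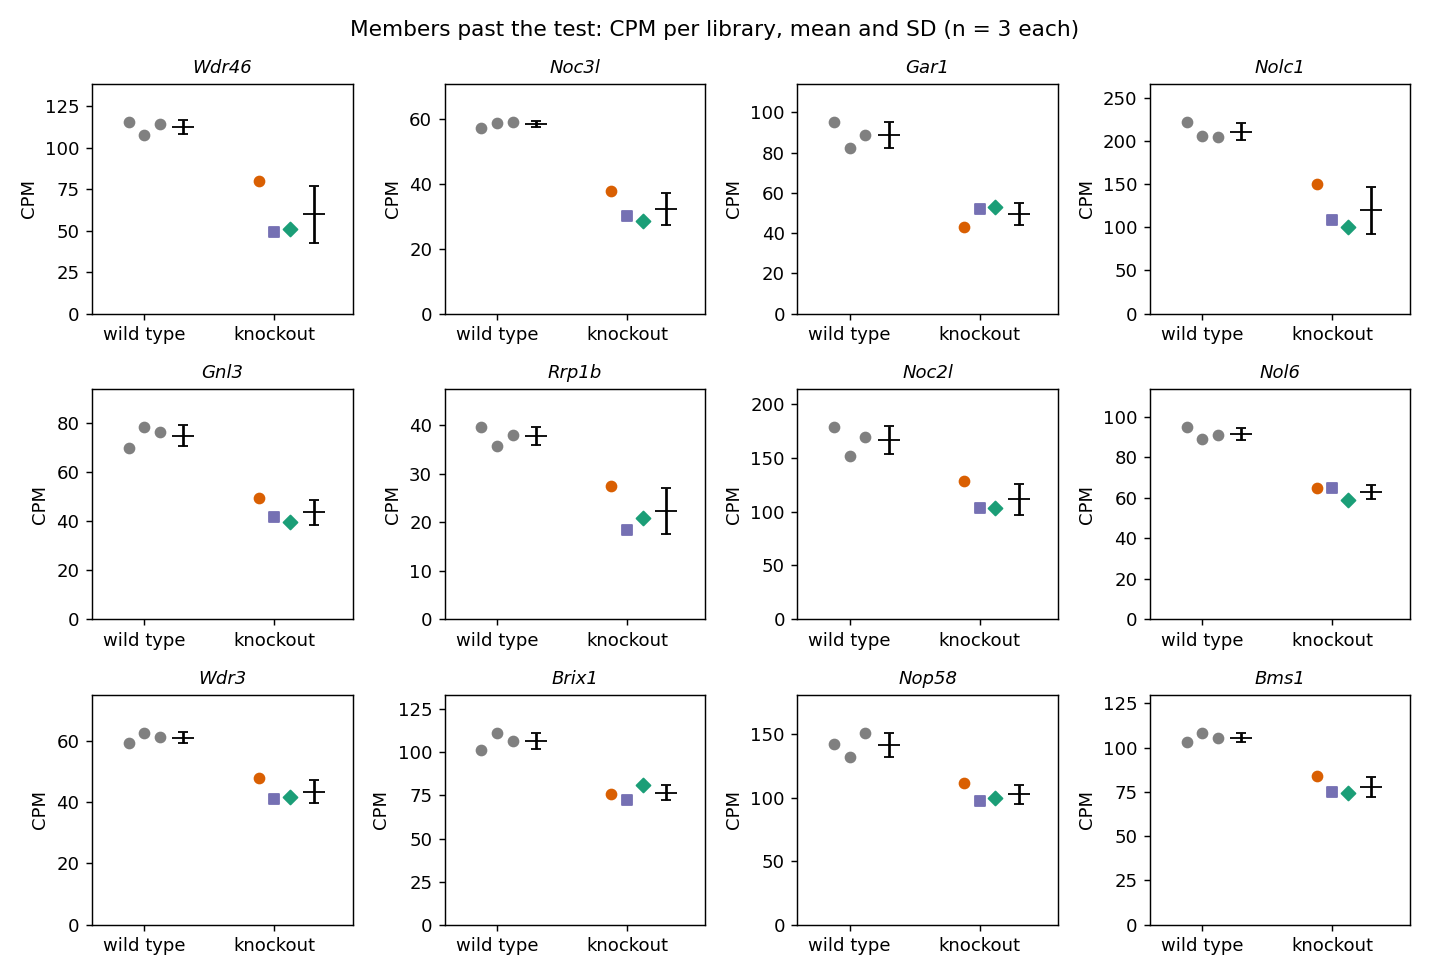
CPM per library (vertical axes, from 0) of the 12 members past the test, ordered by log2 fold change: grey points for the 3 wild-type libraries and a circle, square and diamond for KO 2, KO 9 and KO 22, with the mean and SD (n = 3) beside each group. No knockout point reaches the lowest wild-type point for any of the 12 genes.

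The knockout lines were not equal. The median of the members' log2 deviations from the wild-type mean was -0.20 in KO 2, -0.53 in KO 9 and -0.51 in KO 22, where the medians of all tested genes were 0.01, 0.00 and 0.00. KO 2 was the highest of the 3 lines for 48 members (80.0%) and for 31.0% of tested genes. All 3 lines were below the wild-type mean for 43 members (71.7%) and for 25.8% of tested genes. Without KO 2, 32 members fell and 0 rose, where 5.14% of tested genes were called lower, and the members' median was -0.51.

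**Figure D3:**
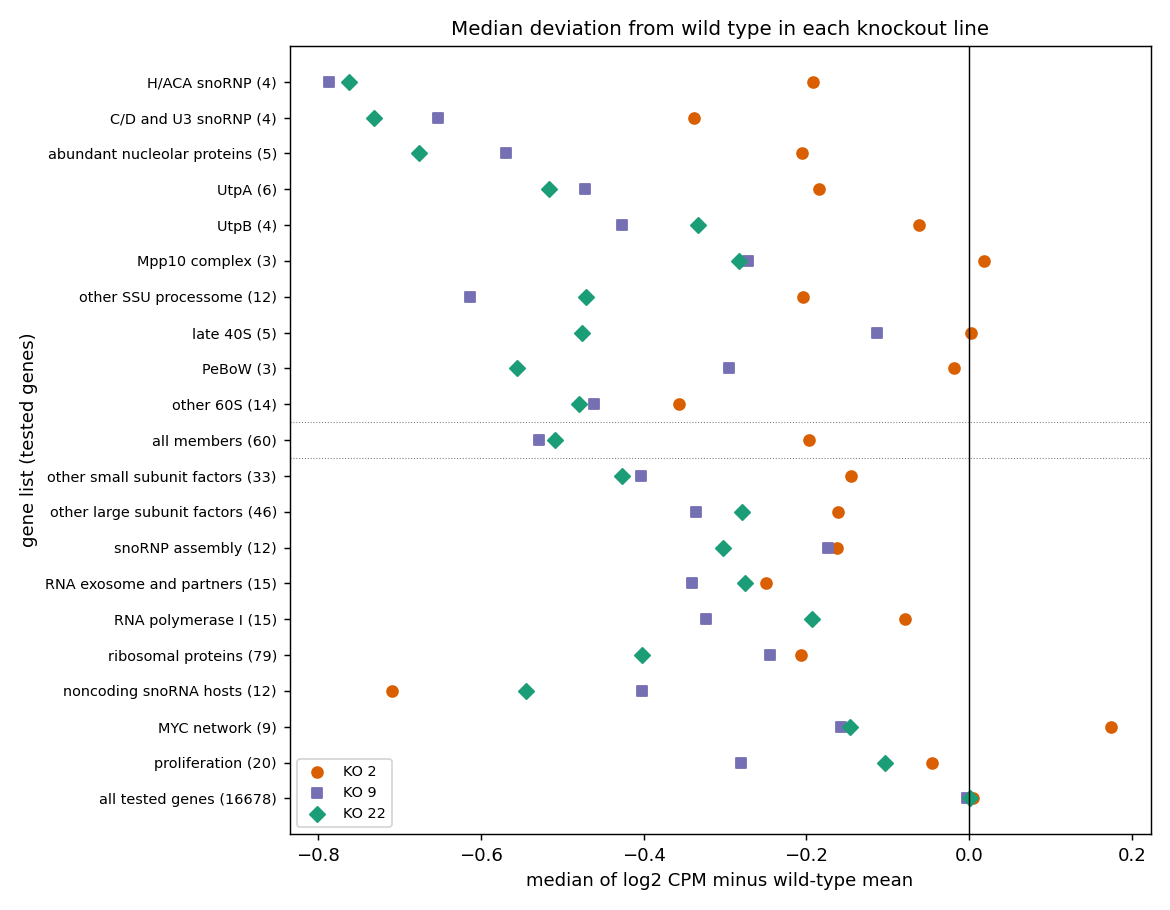
Median log2 CPM after TMM scaling minus the wild-type mean (horizontal axis) for each role group, all members, related gene lists, the proliferation list and all tested genes (vertical axis, number of tested genes in brackets), with a circle for KO 2, a square for KO 9 and a diamond for KO 22. The medians of all members are -0.20, -0.53 and -0.51, and those of all tested genes are near 0 in each line.

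Genes around the members in the same pathway were counted from 8 further lists. Of their 221 tested genes 29 fell and 0 rose by edgeR (102 lower and 4 higher at an unadjusted p under 0.05), with a median log2 fold change of -0.29 and 179 below 0. Across all tested genes edgeR called 3.19% lower, 12.5% were lower at an unadjusted p under 0.05 and 48.4% were below 0. DESeq2 called 68 lower (7.62% of all genes it tested) and limma-voom 35 lower (3.75%), with 0 higher in each. The 3.19% applies to each list below, and a count of 1 in a list of 12 or 15 says little. Of 79 ribosomal proteins 13 fell, among them Rpl8 (-0.71), Rps18 (-0.74), Rpl18 (-0.51) and Rps28 (-0.67), and their median was -0.30. Copies of ribosomal protein genes are common in the genome, so their counts are less certain. These lists were chosen with earlier results of the same libraries known.

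Among 33 other small-subunit factors 3 fell, Ngdn (-0.59), Nop14 (-0.48) and Pdcd11 (-0.60), and among 46 other large-subunit factors 6 fell, with Nol12 (-0.52), Mrto4 (-0.64), Wdr74 (-0.79) and Nmd3 (-0.55) the first 4 by p. One of 12 snoRNP assembly genes fell, Snu13, a protein shared by C/D particles and the spliceosome, from 351 ± 9.38 to 234 ± 16.3 CPM (mean ± SD, n = 3 each). In the RNA exosome list 2 of 15 fell: the nuclease Dis3, from 117 ± 4.24 to 70.8 ± 2.72 CPM, and Exosc4, from 64.5 ± 1.79 to 42.8 ± 4.08 CPM. Polr1a, which encodes the main catalytic subunit of RNA polymerase I, fell from 137 ± 6.02 to 82.8 ± 13.6 CPM (log2 fold change -0.70, adjusted p = 0.0311), and the other 14 genes of that list did not pass. Of 12 noncoding RNAs that host snoRNAs in their introns 3 fell, Snhg1 (-0.73), Snhg15 (-0.73) and Zfas1 (-0.69), and here KO 2 had the lowest median deviation (-0.71) of the 3 lines.

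In the MYC network list 0 of 9 tested genes passed in edgeR (3 at an unadjusted p under 0.05: Myc, Mxi1 and Mxd4), and the median log2 fold change was 0.05. Myc, a transcription factor that many of these genes are known to respond to, stood at 63.2, 63.6 and 70.8 CPM in wild type and 50.3, 41.0 and 34.2 CPM in knockout. The groups did not overlap, and the test fell short of the threshold (log2 fold change -0.63, SE 0.14, adjusted p = 0.0534). Its partner Max had a log2 fold change of 0.11 (adjusted p = 0.739). Mxi1 and Mxd4 are named after their values were seen. Mxi1, known as a MYC antagonist, had a mean of 72.5 CPM over the wild-type libraries against 35.4 CPM over the knockout ones, with the smallest p of the list (log2 fold change -1.005, adjusted p = 0.0521), and Mxd4 had 0.45 (adjusted p = 0.111).

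Upstream sequence from RefSeq (GRCm38.p6) could be matched for 50 members. For 3 members past the test, the 250 bases before the annotated start are shown. The motifs counted next were read in these bases and in a longer window, which adds 50 bases after the start that are not shown. Capitals mark CCGGAAG, the core of an ETS-type site, or its reverse complement. The Noc3l stretch shown holds neither CCGGAAG nor the E-box CACGTG, but Noc3l is among the members with CCGGAAG in the longer window.
Gar1, chr3:129831397-129831646, minus strand: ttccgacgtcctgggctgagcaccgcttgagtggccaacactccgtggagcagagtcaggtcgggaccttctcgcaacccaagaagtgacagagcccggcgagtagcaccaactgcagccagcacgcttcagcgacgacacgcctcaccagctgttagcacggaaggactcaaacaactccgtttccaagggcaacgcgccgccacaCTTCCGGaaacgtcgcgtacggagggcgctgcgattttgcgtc
Nolc1, chr19:46075597-46075846, plus strand: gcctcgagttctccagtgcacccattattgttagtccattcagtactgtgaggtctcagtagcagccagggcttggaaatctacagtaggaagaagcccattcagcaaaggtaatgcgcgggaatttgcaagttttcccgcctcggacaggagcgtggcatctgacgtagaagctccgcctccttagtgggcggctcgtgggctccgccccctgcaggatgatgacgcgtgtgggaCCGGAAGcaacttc
Noc3l, chr19:38819238-38819487, minus strand: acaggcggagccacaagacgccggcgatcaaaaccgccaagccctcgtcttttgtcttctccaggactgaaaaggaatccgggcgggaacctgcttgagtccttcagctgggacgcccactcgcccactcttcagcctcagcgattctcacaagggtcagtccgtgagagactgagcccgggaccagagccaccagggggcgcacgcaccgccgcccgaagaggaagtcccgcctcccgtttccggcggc

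In a window of 300 bases, which adds the 50 bases after the start, CCGGAAG on either strand was found in 21 of 50 members (42.0%) and in 19.8% of the 10665 tested genes with a promoter. The 11 members past the test with a promoter held it in 8 cases. In the 250 upstream bases the counts were 16 of 50 (32%), 15.4% of tested genes and 5 of 11. The E-box CACGTG was in 13 of 50 members (26.0%) against 11.6% of tested genes in the longer window, and in 5 of 50 (10%) against 9.82% in the upstream bases, so its share depended on the 50 bases after the start. It was in 1 of the 11 members past the test in either window.

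A further 5 motifs were searched in the same windows. In the 300 bases, the NRF1-type motif was in 10 of 50 members and 11.3% of tested genes, CCAAT in 46.0% and 43.2%, TATAAA in 6.0% and 9.1%, and a palindromic motif with a central CGCG in 2.0% and 1.13%. The YY1-type motif was in 0 members and in 2.33% of tested genes. In the upstream bases the NRF1-type motif was in 8.0% of members and 9.09% of tested genes. The motifs and both windows were chosen after the expression results were known, both strands were read, and a match is not a binding site.

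Some members also carry snoRNA genes within their bounds. On their own strand 7 members (11.7%) held 21 annotated snoRNA genes, against 1.69% of 12739 tested protein-coding genes: Nop56 held 5, Nop58 4, Ncl, Wdr43 and Gnl3 3 each, Tsr1 2 and Dkc1 1. Of these 7, Nop58 and Gnl3 fell. PolyA libraries do not measure the snoRNAs themselves.

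Some chromosomes had a shifted median in the knockout libraries. The median log2 fold change of all tested genes was -0.29 on chromosome 17, -0.24 on 15, -0.21 on 19 and -0.12 on 14, and 6 of the 12 members that fell lie on these 4 chromosomes. In that order they hold 3, 3, 4 and 1 of the 60 members, and 843, 686, 593 and 572 of the 16678 tested genes. The median was 0.20 on chromosomes 8, 13 and 16 and 0.18 on 9 and 10, which hold 12 members. None of those 12 passed the test and 10 of them had a value below 0, such as Heatr1 (-0.55) and Utp15 (-0.38) on 13, Nip7 (-0.25) and Utp4 (-0.22) on 8 and Ddx21 (-0.38) on 10. Each member was set beside the tested genes within 5 Mb. All 12 were lower than the median of those neighbours, as were 57 of the 60 members, and the neighbours' median was itself below 0 for 10 of the 12 and 28 of the 60.

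With the neighbours' median deviation taken out of each library, 7 members fell and 0 rose (2.36% of tested genes were called lower), and with the chromosome's median taken out 7 fell and 0 rose (2.37%). Gar1, Noc3l and Bms1 passed under both of these settings as well as in the fit without them. Their log2 fold changes with the neighbours taken out were -0.62, -0.70 and -0.36. Wdr46 and Nolc1, on chromosomes 17 and 19, were at -0.60 and -0.51 and did not pass (adjusted p = 0.0763 and 0.0842). Wdr75 on chromosome 1, whose neighbours had a median of 0.41, passed only with the neighbours taken out (-0.61, adjusted p = 0.0263, against -0.24 before). The members' median was -0.43 with either taken out.

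Hybrid cells carry base differences between their chromosome copies, so a part of the reads (37.0% to 37.9% of split counts) could be assigned to genome 1 or genome 2. The sources used here do not say which strain genome 1 is. Over whole autosomes, the genome 1 share ranged over at most 1.8 percentage points among the wild-type libraries. It was 36.9%, 37.3% and 36.3% on chromosome 1. On chromosome 14 it was 58.5%, 58.2% and 58.6% in wild type and 54.2%, 35.4% and 56.0% in knockout. Chromosome 7 was the only autosome with the wider range in wild type (1.46 against 0.237 points). Whether the wild-type libraries are repeats of the same cells was not tested. The share of genome 1 among assigned counts changed for 23 of 59 members tested, where 23.0% of all tested genes changed. It was higher in knockout for 15 and lower for 8. With a minimum of 50 counts or with limma the number was also 23 (26.4% and 23.8% of all genes), and with 1 library left out it was 15 to 29, beside 13.2%, 13.1% and 13.4% of all genes without WT 1, 2 and 3 and 20%, 29.6% and 21.1% without KO 2, 9 and 22. The 23 lie on 7 chromosomes (1, 3, 6, 7, 8, 10 and 19), and for 23 of 23 the neighbours within 5 Mb moved the same way.

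Members of chromosome 1 moved towards genome 1 in every knockout line. Ncl had a genome 1 share of 38.0%, 39.8% and 39.4% in wild type and 66.5%, 71.3% and 65.6% in knockout. Its neighbours went from 29.3% to 53.6% on average. Nop58 went from 39.5% ± 1.77 to 68.4% ± 3.41 (SD, n = 3 each), and on chromosome 6 Bms1 went from 34.3% ± 1.72 to 61.9% ± 1.48.

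The opposite direction was seen on chromosomes 7 and 19. Fbl had 63.9%, 65.2% and 65.1% in wild type and 33.1%, 36.7% and 38.5% in knockout, and its neighbours went from 62.3% to 35.7%. Noc3l and Nolc1 on chromosome 19 went from 71.8% ± 3.02 to 50.5% ± 1.153 and from 74.0% ± 1.17 to 53.4% ± 2.103. For all 3 genes the knockout libraries lay apart from the wild-type libraries.

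Once the neighbours' allelic ratio was taken out, 0 of 59 members passed in edgeR (3 at an unadjusted p under 0.05, smallest adjusted p 0.148, for Nop2), where 0.516% of tested genes did. Nop2, an rRNA methyltransferase on chromosome 6, had a genome 1 share of 20.7% ± 2.45 in wild type and 34.4% ± 2.20 in knockout, a difference of 13.7 percentage points beside 27.3 for its neighbours. Over the 56 autosomal members tested, the difference of the member and of its neighbours had a Pearson r of 0.966, as a description of points that share libraries and chromosomes. On some chromosomes the shift was mainly in 1 line. Gnl3 on chromosome 14 had shares of 69.5% to 70.2% in wild type and 64.8%, 44.0% and 64.7% in KO 2, 9 and 22, and its neighbours stood at 65.3%, 41.2% and 65.5% in those lines.

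**Figure D4:**
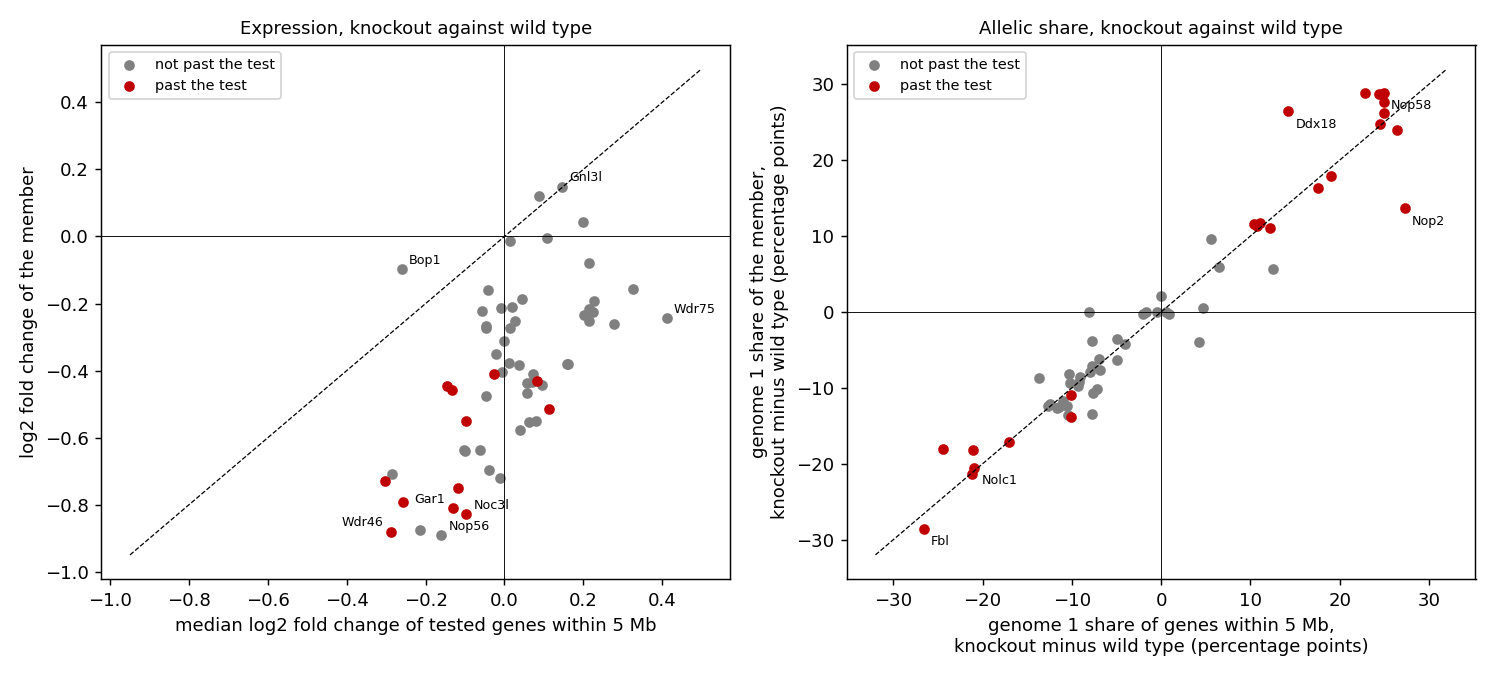
Each point is a member; red points passed the respective test and the dashed line marks equal values. Left, log2 fold change (vertical axis) against the median of tested genes within 5 Mb (horizontal axis), where 57 of 60 points lie below the line. Right, knockout minus wild type in genome 1 share, in percentage points (vertical axis), against the same for genes within 5 Mb (horizontal axis), where the 23 members past the test have neighbours that moved the same way.

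The 3 X-linked members were read almost entirely from genome 2. Utp14a, a processome protein, had 0 genome 1 counts in all 6 libraries beside 877 to 1246 genome 2 counts, which allows a share of up to 0.241% in WT 1 and 0.342% in KO 22. Gnl3l had 0, 5 and 0 genome 1 counts in wild type and 0, 0 and 0 in knockout, beside 607 to 780 from genome 2. Dkc1 had 3, 8 and 7 against 0, 3 and 7, beside 977 to 1740. None of the 3 passed the allelic test. Utp14a, which is counted among the 59 members tested, could not have passed it with 0 genome 1 counts in every library. Genome 1 shares of all X-linked genes with split counts together, tested or not, were 4.50% to 4.88% in wild type and 3.85% to 4.11% in knockout.

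On the autosomes, Nop56 was read at 99.8% from genome 1 in both groups, and Mybbp1a at 0.168% in wild type and 0.104% in knockout, while their neighbours stood at 90.3% and 58.8% in wild type. Intervals for such shares cover counting error only. For Rrp1b the genome 1 share was 79.8%, 58.8% and 61.0% in WT 1, 2 and 3, a wider spread than for the other members past the test.

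The transcript table showed which isoforms carried the counts. In 43 members at least 90% of the estimated counts were in protein-coding transcripts in every library. Rrp1b, which fell, was an exception, with 12.02% to 12.62% in coding transcripts in wild type and 12.5%, 23.6% and 14.7% in KO 2, 9 and 22. Gar1 had 53.1% to 57.3% against 71.1%, 56.5% and 63.0%. In Utp18, Nol9, Nob1 and Mybbp1a the coding share ranged over more than 20 percentage points within the wild-type libraries, as for Utp18 at 99.8%, 99.9% and 23.5%, so no isoform statement was made for them.

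Counting limits apply to some members. In 17 members the gene overlaps another tested gene on the opposite strand, among them Wdr3 (Gdap2), Gnl3 (Pbrm1) and Rrp1b (Hsf2bp) of the 12 that fell. Whether the counting used strand is not stated in the sources used here, so reads of these pairs may not be told apart. Annotated pseudogenes named after Fbl and Wdr46 could also share their reads.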

How the data were processed

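PolyA libraries of TTF cells were analysed from the tables that the authors deposited. Their processing notes name StringTie 1.3.3, HISAT2 2.1.0, DESeq2 1.32.0, SAMtools 0.1.19, Trimmomatic 0.36 and FastQC 0.11.3, and the builds mm10 and GRCm38; tool roles, strand setting, gene models: not given in the sources used here. Deposited values are taken as estimated counts, since StringTie is the only quantifier named and the headers state no unit: by gene and by transcript, and by gene for reads assigned to genome 1, to genome 2 or to neither. All are whole numbers. Columns were matched to samples by name; knockout columns 2, 9 and 22 match the titles of 3 lines. They may instead be earlier libraries of those lines. Under the match used, the 2 groups come from differently named sets, and if these were sequenced apart, set and genotype cannot be told apart. Split reads by transcript were not used.

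All tested genes were fitted with edgeR 4.0.16 (R 4.3.3): TMM, its default filter, the quasi-likelihood test and Benjamini-Hochberg adjustment over 16678 genes, adjusted p under 0.05 called. SE is the log2 fold change divided by the root of F. CPM uses total gene counts; TPM uses joined exon lengths of GENCODE M21, which matched 55227 genes. Overlap of groups was read on CPM. Deviations are log2 CPM after TMM with a prior count of 2, from the wild-type mean. The allelic model had terms for library, allele and allele by group; it took genes averaging 20 or more assigned counts. Floors at 0 counts used 3 counts per library. Alternatives used DESeq2 1.42.0 and limma 3.58.1; scripts were tested on simulated data.

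The members and lists were chosen with earlier results of these data known, and the neighbour settings, motifs and windows after the data were seen. All 60 members could be named; members past the test, X-linked, with the 5 highest TPM or with a log2 fold change above 0 were given by library, and others up to 4 per list by p, with Sirt7, Myc and Max.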

Additional observations from a re-analysis of the deposited data

How the results depend on the processing

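With RLE size factors 12 members and 29 other pathway genes fell, as with TMM. The share of all tested genes called lower under each setting is given above. Without the filter on low counts 4 members and 8 other genes fell; with DESeq2 24 and 68; with limma-voom 15 and 35; with chromosome medians taken out 7 and 22; with neighbours taken out, a setting added after the data were seen, 7 and 19. Leaving out 1 library gave 0 to 32 members and 0 to 53 other genes: 0 and 0 without any of the wild-type libraries, 32 and 53 without KO 2, 9 and 30 without KO 9, and 13 and 43 without KO 22. With 1 library left out of a group the spread rests on the rest. The members' median stayed between -0.51 and -0.33 throughout. Of the 12 members called, Gar1 and Noc3l passed in 9 of the 12 other settings. Nop58, Rrp1b and Wdr46 passed in 4 and Noc2l in 3. Members with a changed allelic ratio were 23 with a minimum of 50 counts and with limma, 15 to 29 with 1 library left out (15 without WT 3), and 0 with the neighbours' ratio taken out. The causes were not tested.

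Log2 fold changes changed sign for some members that passed no test. With chromosome medians taken out Ltv1 was at -0.13, Bop1 at 0.18 and Rrp1 at -0.053. With neighbours taken out Wdr36 was at 0.0055, Ltv1 at -0.11 and Bop1 at 0.21. With 1 library left out the values ranged from -0.24 to 0.095 for Wdr36, -0.37 to 0.027 for Imp3, -0.12 to 0.16 for Imp4, -0.22 to 0.050 for Nob1, -0.16 to 0.17 for Ltv1 and -0.19 to 0.068 for Bop1.

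No paired analysis was possible because the labels link no wild-type library to a knockout library. The wild-type numbers (1, 2 and 3) are replicate numbers and the knockout numbers (2, 9 and 22) are line numbers, so WT 2 and KO 2 are not a pair. Whether depth or the number of libraries limits the members' precision was not tested.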
